A study of Mus musculus with 36 samples.

Results

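Ceruloplasmin and 9 other genes that move, store or release iron and copper were followed across 36 libraries of bulk mRNA sequencing from subcutaneous mouse tumours. The 10 genes were named by their part in iron handling, with earlier results of these data in view, and were found by symbol among the 37417 gene rows of the count table, all with counts in every library. They are the copper ferroxidase ceruloplasmin (Cp) and the iron exporter ferroportin (Slc40a1), the uptake genes Tfrc, Trf and Slc11a2, the ferritin chains Fth1 and Ftl1, haem oxygenase 1 (Hmox1), lipocalin 2 (Lcn2) and the phagosomal metal transporter Nramp1 (Slc11a1). Levels are in CPM, the count of a gene scaled to the total of all counts assigned to genes in that library.

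Cells take up iron from transferrin through the transferrin receptor and carry it out of the endosome by the divalent metal transporter encoded by Slc11a2. Iron that is not used is held in ferritin, a shell of heavy and light chains, and haem oxygenase 1 releases further iron from haem. Ferroportin is the only known iron exporter of mammalian cells, and ceruloplasmin, which carries copper, oxidises the exported iron so that transferrin can bind it. Macrophages recycle iron from engulfed red cells and are rich in several of these proteins, while lipocalin 2, a neutrophil granule protein that epithelia also make, captures bacterial siderophores. Much of this control acts on mRNA: iron regulatory proteins bind a hairpin, the iron-responsive element, to block translation from a 5′ UTR or to stabilise an mRNA from a 3′ UTR, so an mRNA level need not follow the protein level.

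The mice were labelled wild type and 12 weeks old. MC38, a colon adenocarcinoma line, and PancO2, a pancreatic adenocarcinoma line, were labelled as grown in C57BL/6J mice, and CT26, a colon carcinoma line, in BALB/c mice. Within each model, mice received rat serum IgG as the control, an antibody to PD-1 or an antibody to CTLA4, each at 10 mg per kg, with 4 libraries in each of the 9 labelled groups. Libraries are named by labelled group and mouse number, and since each is 1 tumour, p-values measure the spread between tumours.

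The libraries fell into 3 classes of 12 that did not follow the labels, and the genes are described by class. The H2-Ea-ps class held the libraries with more than 10 CPM of H2-Ea-ps, a class II histocompatibility pseudogene that is transcribed in BALB/c but not in C57BL/6 mice. Its values ran from 32.8 to 134 CPM there and reached 0.0845 CPM in any other library. The Cp-high class held the libraries with more than 1000 CPM of Cp, and the third class held the rest. The lowest Cp level inside the Cp-high class was 1389 CPM and the highest outside it was 611 CPM. The classes were thus chosen by measured levels, Cp among them, and differences between classes are described and not tested. Of libraries with a BALB/c label 4 of 12 carried H2-Ea-ps, as did 8 of 24 with a C57BL/6J label, so 16 of 36 libraries went against the labelled strain, and all 9 labelled groups held libraries of more than 1 class.

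Assigned reads totalled between 7883106 and 41751023 per library. The library labelled PancO2 anti-PD-1 71, in the H2-Ea-ps class, stood apart. It was the shallowest, 86.5% of its listed reads were assigned to no gene, and 15.7% of its assigned reads came from mitochondrially encoded genes, against 2.80% to 4.35% in the other 35. It had the lowest Ftl1, Hmox1 and Slc11a2 levels of all libraries. Many results are therefore given with and without it. The fewest counts of a listed gene in any library were 5, for Slc40a1.

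To show which of the 10 mRNAs carry the regulatory hairpin, the annotated transcripts (GENCODE M21, GRCm38, the build the reads were mapped to) were searched on the transcript strand for a C, 5 bases, the loop CAGTGN and 5 bases that pair with the first 5, G with U allowed. Such hairpins were found 7 times, in 4 of the 10 genes. Among all protein-coding genes, 0.151% held one in a 5′ UTR, 0.615% in a 3′ UTR and 0.635% in the coding part. Capitals mark the bulged C and the loop, and all 7 sites lie within 1 exon.
Fth1, 5′ UTR, chr19:9982732-9982760, plus strand: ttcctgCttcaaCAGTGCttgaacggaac
Ftl1, 5′ UTR, chr7:45459779-45459807, minus strand: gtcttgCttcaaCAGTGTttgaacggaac
Slc40a1, 5′ UTR, chr1:45925465-45925493, minus strand: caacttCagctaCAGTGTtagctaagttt
Tfrc, 3′ UTR, chr16:32631219-32631247, plus strand: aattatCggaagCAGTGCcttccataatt
Tfrc, 3′ UTR, chr16:32631598-32631626, plus strand: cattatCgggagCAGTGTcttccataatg
Tfrc, 3′ UTR, chr16:32631663-32631691, plus strand: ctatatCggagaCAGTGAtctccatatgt
Tfrc, 3′ UTR, chr16:32631710-32631738, plus strand: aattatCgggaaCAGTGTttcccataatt
The ferritin chains and ferroportin carried the element on the 5′ side, where it acts on translation, and Tfrc carried it 4 times on the 3′ side, where it acts on mRNA stability. These letters were not found in the UTRs of the other 6 genes, which does not mean that they lack the element. Slc11a2 is known to carry one in the 3′ UTR of one isoform, and a hairpin with a looser stem would not match this search.

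Ferritin mRNAs were the most abundant of the 10 when levels were divided by exonic length. In the Cp-high class the median was 519 CPM per kb for Fth1, 333 for Ftl1, 191 for Cp and 90.7 for Hmox1. At the low end, the medians there were 1.75 CPM per kb for Trf, 1.24 for Lcn2 and 0.371 for Slc40a1. Tfrc, at 18.6 CPM per kb, and Slc11a1 and Slc11a2, at 12.2 and 7.02, lay between.

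**Figure D1:**
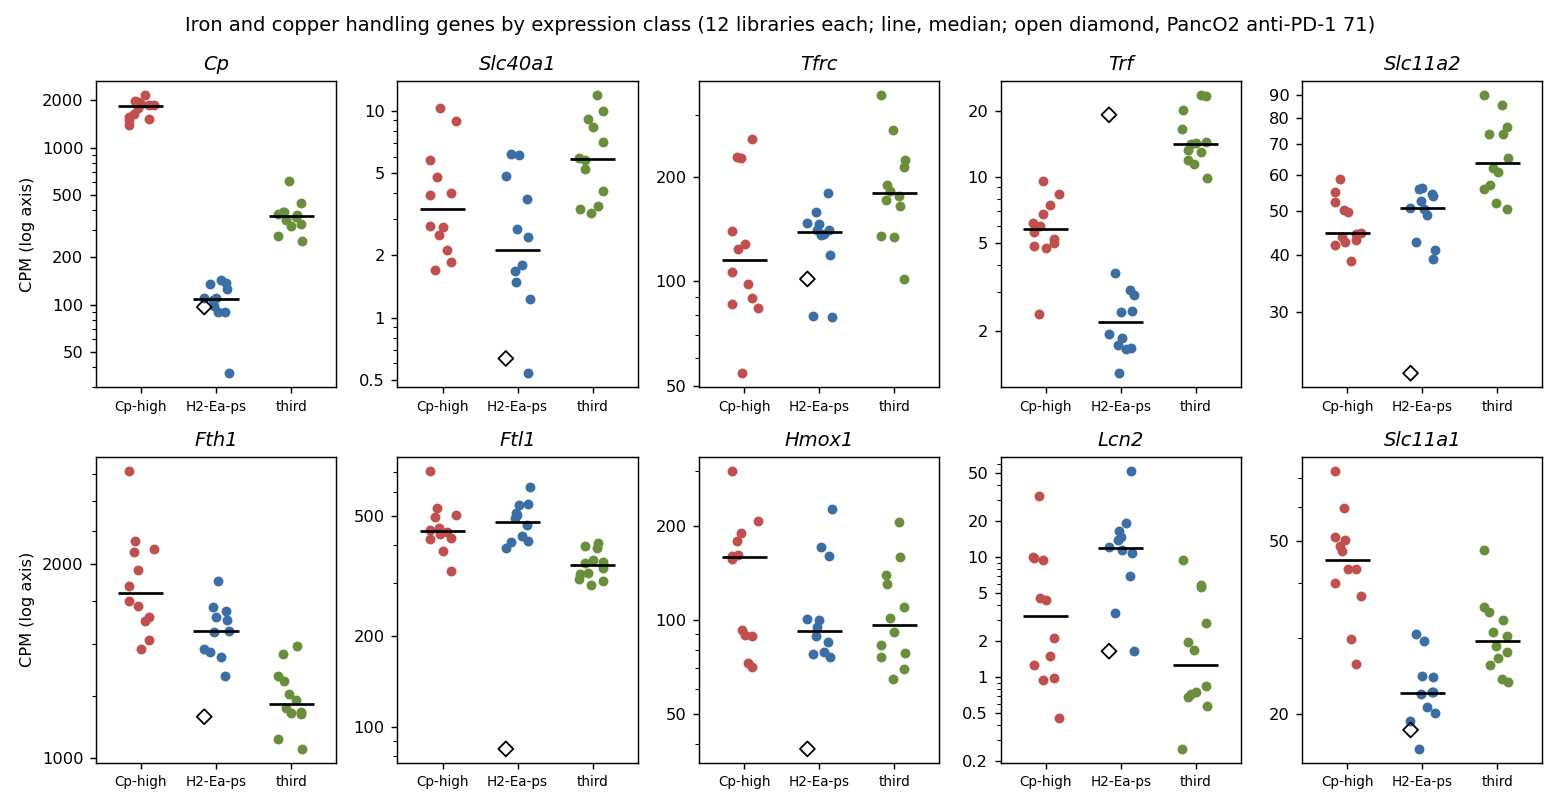
Level of each of the 10 genes in CPM (log axis) in the 36 libraries, split by class (12 libraries each); each point is 1 library, the line is the class median and the open diamond is PancO2 anti-PD-1 71. Cp is separated because it set the classes; Trf lies highest in the third class, and the Fth1 median falls from 1799 CPM in the Cp-high class to 1214 CPM in the third class.

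Cp (chr3:19957054-20009145, plus strand) had the widest separation, as its use in setting the classes required. Within the Cp-high class it was the second most even gene, with a lowest level of 1389 CPM, a median of 1832 CPM and a highest level of 2168 CPM, a 1.56-fold range. In the third class it ran from 255 to 611 CPM with a median of 368 CPM, and in the H2-Ea-ps class from 36.5 to 143 CPM with a median of 108 CPM. Across all libraries the highest level was 59.3 times the lowest. The highest library of the third class, PancO2 IgG 49 at 611 CPM, and the lowest of the Cp-high class, PancO2 IgG 48 at 1389 CPM, are the members nearest to the limit. Even outside the Cp-high class no library lacked Cp, whose counts were at least 761. Liver is the usual source of plasma ceruloplasmin. The 7 hepatocyte markers summed to 0.746 to 1.37 CPM in the Cp-high class and to at most 3.55 CPM in any library. In the Cp-high class 4 of the 7 had counts. Ttr, Serpina1a and Fgb were at 0 in every library of the Cp-high class and of the third class. The summed markers were lower still in the third class, at no more than 0.131 CPM. Which cells the Cp mRNA came from was not tested.

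Slc40a1 (chr1:45908068-45926523, minus strand), the exporter that ceruloplasmin works beside, did not follow Cp. It was low everywhere, from 1.70 to 10.3 CPM in the Cp-high class (median 3.34), from 0.539 to 6.15 CPM in the H2-Ea-ps class (median 2.12) and from 3.21 to 11.9 CPM in the third class (median 5.82). The ranges of the 3 classes overlapped throughout. Its highest median was in the third class, where Cp was intermediate. Within classes the Pearson r of Cp and Slc40a1 in log2 CPM was 0.044, 0.13 and -0.48 in the Cp-high class, the H2-Ea-ps class and the third class.

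Among the uptake genes, Trf had the clearest class pattern. Trf (chr9:103204001-103230444, minus strand) encodes transferrin, the plasma iron carrier. It ran from 9.90 to 23.7 CPM in the third class (median 14.2), from 2.37 to 9.67 CPM in the Cp-high class (median 5.79) and from 1.28 to 19.3 CPM in the H2-Ea-ps class (median 2.18). Every library of the third class was therefore above every library of the Cp-high class. The one high value in the H2-Ea-ps class was PancO2 anti-PD-1 71 at 19.3 CPM, and without it that class reached 3.67 CPM. The exons of Trf overlap those of Gm20425 on the same strand over 2108 bases, so reads there may have been set aside in counting.

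Tfrc (chr16:32608920-32632794, plus strand), the receptor that takes in loaded transferrin and is abundant in dividing and erythroid cells, had ranges within classes wider than the distance between class medians. It ran from 54.4 to 257 CPM in the Cp-high class (median 115), from 78.7 to 180 CPM in the H2-Ea-ps class (median 139) and from 102 to 343 CPM in the third class (median 179). The transporter Slc11a2 (chr15:100387898-100425072, minus strand) was narrower, from 38.8 to 58.7 CPM in the Cp-high class (median 44.6), from 21.9 to 56.2 CPM in the H2-Ea-ps class (median 50.6) and from 50.4 to 90.0 CPM in the third class (median 63.8). The lowest Slc11a2 value was PancO2 anti-PD-1 71, and the next in its class was 39.2 CPM. For both genes the third class had the highest median, and its range overlapped those of the other classes. The 7 erythroid markers summed to 8.71 to 263 CPM in the Cp-high class, 14.2 to 166 CPM in the H2-Ea-ps class and 19.1 to 306 CPM in the third class, and their part in the Tfrc levels was not tested.

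The storage genes ran the other way, with their lowest medians in the third class. Fth1 (chr19:9980598-9985098, plus strand), the heavy chain with ferroxidase activity, ran from 1476 to 2785 CPM in the Cp-high class (median 1799), from 1160 to 1879 CPM in the H2-Ea-ps class (median 1573) and from 1034 to 1493 CPM in the third class (median 1214). Ftl1 (chr7:45457944-45459884, minus strand), the light chain, ran from 329 to 706 CPM (median 447), from 84.6 to 625 CPM (median 478) and from 294 to 408 CPM (median 343) in the same order. Without PancO2 anti-PD-1 71 the lowest Ftl1 level of the H2-Ea-ps class was 392 CPM. The ratio of Fth1 to Ftl1 in CPM lay between 3.67 and 4.63 in the Cp-high class, between 3.07 and 4.27 in the third class and between 2.52 and 3.96 in the H2-Ea-ps class apart from PancO2 anti-PD-1 71, where it was 13.7. Ferritin has processed pseudogenes that can take reads, and the annotated pseudogene rows held at most 13.7 CPM for Ftl1-ps1 and 0.683 CPM for Fth-ps2.

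Hmox1 (chr8:75093621-75100589, plus strand), which opens the haem ring and frees its iron, had a median of 159 CPM in the Cp-high class, with a lowest level of 70.4 and a highest of 301 CPM. Its median was 92.0 CPM in the H2-Ea-ps class (38.6 to 226 CPM) and 96.1 CPM in the third class (64.4 to 206 CPM). The library MC38 anti-CTLA4 8 held the highest Hmox1, Fth1, Ftl1 and Slc11a1 levels of all 36, at 301, 2785, 706 and 72.7 CPM.

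Lcn2 (chr2:32384633-32388252, minus strand) was the most variable of the 10 genes within each class. It ran from 0.455 to 32.3 CPM in the Cp-high class (median 3.26), from 1.65 to 52.7 CPM in the H2-Ea-ps class (median 11.8) and from 0.253 to 9.44 CPM in the third class (median 1.27). The ranges overlapped although the median of the H2-Ea-ps class was 9.36 times that of the third class. The 5 keratinocyte markers, as a sign of skin, reached 533 CPM in PancO2 IgG 48. Lcn2 was at 9.96 CPM there, above its class median of 3.26 CPM. The markers reached 7.99 CPM at most in the H2-Ea-ps class, where Lcn2 was highest. The part of skin in the Lcn2 levels was not tested. Slc11a1 (chr1:74375195-74386062, plus strand), which pumps metal out of the phagosome, was highest in the Cp-high class, at 26.1 to 72.7 CPM (median 45.4), against 16.6 to 30.6 CPM in the H2-Ea-ps class (median 22.4) and 23.7 to 47.9 CPM in the third class (median 29.4).

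Of the 9 genes other than Cp, Trf was the one whose class ranges did not overlap in some pair of classes. The separation of the Cp-high class by Cp itself was fixed by the 1000 CPM limit. All 10 passed a filter of more than 1 CPM in 4 or more libraries, which left 15217 genes. Of these, 18.9% had all libraries of the Cp-high class above all of the H2-Ea-ps class, and 0 of the 9 genes other than Cp did. That share was 22.4% without PancO2 anti-PD-1 71. The Cp-high class lay wholly above the third class for 14.6% of genes and for 0 of the 9, and wholly below it for 15.5% of genes and for Trf alone. The third class lay wholly above the H2-Ea-ps class for 17% of genes and for Cp alone, or for Cp and Trf without PancO2 anti-PD-1 71 (20.4% of genes). In the other directions, 12.0% of genes lay wholly lower in the Cp-high class than in the H2-Ea-ps class. Against the H2-Ea-ps class, 9.19% lay wholly lower in the third class. None of the 10 did in either case. Without PancO2 anti-PD-1 71 these shares were 16.9% and 13.4%.

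The relation of the genes to macrophages was asked next, since most of them act in iron recycling. A macrophage index was taken as the mean log2 CPM of 11 marker genes, among them Adgre1, Csf1r and Cd68. The index ran from 6.14 to 6.95 in the Cp-high class, from 6.06 to 6.96 in the H2-Ea-ps class and from 7.12 to 7.64 in the third class, which therefore lay apart. Fibroblast markers moved the same way, 6 genes summing to 5318 to 12565 CPM in the third class, 3011 to 5877 CPM in the Cp-high class and 1869 to 3781 CPM in the H2-Ea-ps class. Their part in the higher Slc40a1 and Trf medians of the third class was not tested. In bulk tumour RNA, fewer cells of a type and less RNA per cell cannot be told apart.

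With class as a term, 0 of the 10 genes changed with the macrophage index by edgeR's quasi-likelihood test (Benjamini-Hochberg adjusted p under 0.05), where 1.07% of 17652 genes rose with it and 0.0623% fell. At an unadjusted p under 0.05, 2 of the 10 and 8.31% of all genes passed. The nearest was Slc11a1, with a slope of 0.73 log2 per index unit (SE 0.21, adjusted p = 0.0973). Slc11a1 was called under 3 alternatives, with an adjusted p of 0.0342 when libraries were scaled by size only, 0.0367 by the DESeq2 Wald test and 0.0465 with a neutrophil index added, and limma-voom called none of the 10. Slc40a1 had the steepest rise, 1.72 log2 per unit (SE 0.59), which did not pass (adjusted p = 0.225). The slopes of Fth1 (0.0044, SE 0.17) and Ftl1 (0.010, SE 0.31) were smaller than their errors. Cp set the classes, so its slope with class as a term (-0.13, SE 0.25) is not read. Within classes the Cp slope was -0.22 (SE 0.26) in the Cp-high class and 0.086 (SE 0.45) in the H2-Ea-ps class. It was -0.60 (SE 0.55) in the third class, and it passed in none of them.

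**Figure D2:**
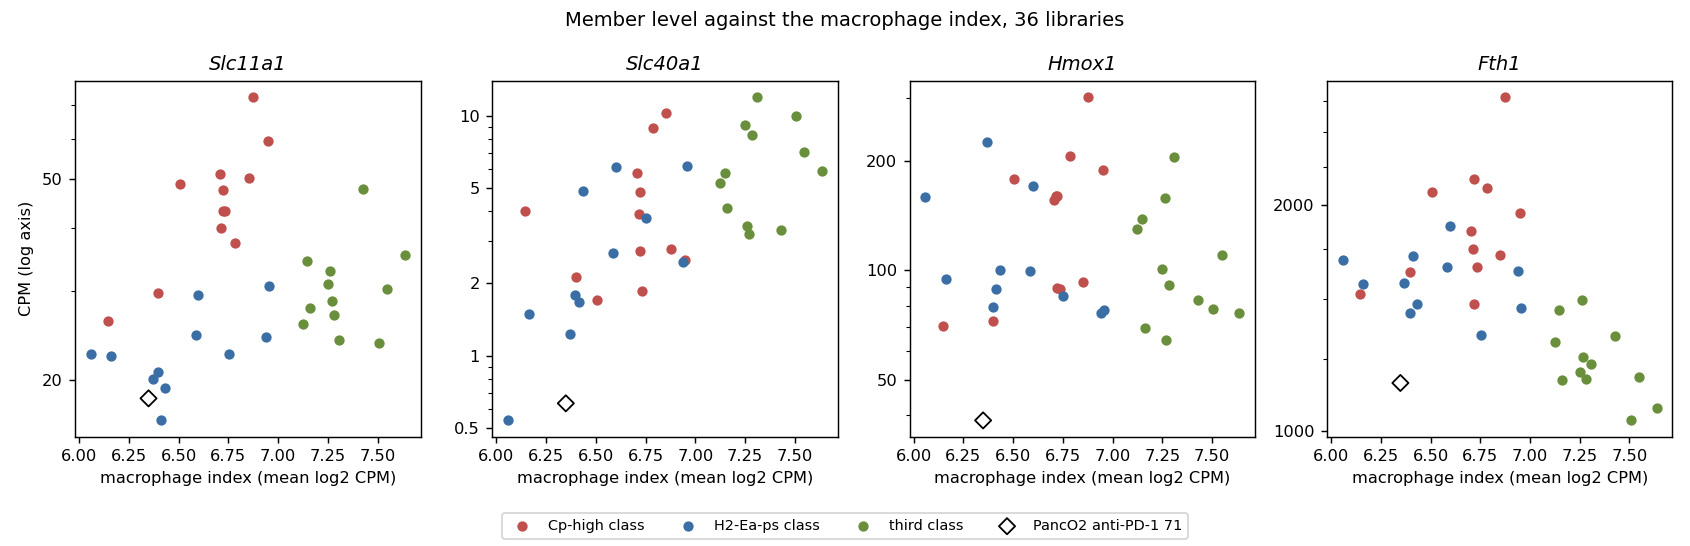
Levels of Slc11a1, Slc40a1, Hmox1 and Fth1 in CPM (log axis) against the macrophage index (mean log2 CPM of 11 markers); each point is 1 of 36 libraries, coloured by class, with PancO2 anti-PD-1 71 as an open diamond. The third class sits apart at an index of 7.12 or more, so relations were read within classes or with class as a term.

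Within the Cp-high class no gene of the 10 and none of 17143 genes passed the edgeR test on the index, and none passed with limma-voom, while 9.89% of genes had an unadjusted p under 0.05. Slc11a1 rose by 1.43 log2 per unit (SE 0.36, adjusted p = 0.149), short of the threshold. Its Pearson r was 0.81 (permutation p = 0.00139, adjusted p = 0.169 over 13957 genes) and its Spearman rho 0.62 (permutation p = 0.0372, adjusted p = 0.925). Without the 2 libraries farthest from the median of the index, r was 0.45 (permutation p = 0.19), so the correlation did not hold without those libraries, whose removal also narrows the range of the index. The slope lay between 1.18 and 1.59 under the 15 alternatives, each left-out library among them. Hmox1 had a slope of 1.85 (SE 0.74, adjusted p = 0.419), an r of 0.59 (permutation p = 0.0393) and a rho of 0.59 (permutation p = 0.0457), and its r was 0.16 without those 2 libraries.

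Within the H2-Ea-ps class, 17 of 15366 genes (0.111%) rose with the index by the edgeR test and 0 fell, and 0 of the 10 were among them. Slc40a1 had the steepest slope, 2.85 log2 per unit (SE 0.91, adjusted p = 0.393). Its r was 0.73 (permutation p = 0.00722, adjusted p = 0.284 over 13574 genes) and its rho 0.85 (permutation p = 0.00117, adjusted p = 0.091). Its r was 0.77 without the 2 farthest libraries. The library with the lowest index of the class, PancO2 anti-PD-1 64, had its lowest Slc40a1 level, 0.539 CPM, and the library with the highest index, PancO2 anti-CTLA4 62, its highest, 6.15 CPM. Lcn2 had a slope of -2.46 (SE 1.04, adjusted p = 0.627), an r of -0.33 (permutation p = 0.291) and a rho of -0.39 (permutation p = 0.209).

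Several of these values moved without PancO2 anti-PD-1 71, although 0 of the 10 genes passed then too. Over the other 11 libraries of the H2-Ea-ps class, Trf went from a slope of -0.70 (SE 1.47) to 1.15 (SE 0.36, edgeR adjusted p = 0.129) and from an r of 0.16 to 0.76 (permutation p = 0.00708, adjusted p = 0.137), with a rho of 0.73 (permutation p = 0.0139). Lcn2 had an r of -0.49 (permutation p = 0.12), a rho of -0.62 (permutation p = 0.0471, adjusted p = 0.28) and a slope of -2.76 (SE 0.94, edgeR adjusted p = 0.182). Slc40a1 kept an r of 0.73, and the slope of Ftl1 was -0.45 (SE 0.19, edgeR adjusted p = 0.25). In that fit 4 of the 10, Slc40a1, Trf, Ftl1 and Lcn2, had an unadjusted p under 0.05, as did 2624 of 15897 genes, and 273 genes passed after adjustment.

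Within the third class 0 of 16347 genes passed the edgeR test and 0 passed limma-voom, with 7.52% at an unadjusted p under 0.05. Fth1 had a slope of -0.58 (SE 0.26, adjusted p = 0.645), an r of -0.59 (permutation p = 0.0437, adjusted p = 0.593 over 13724 genes) and a rho of -0.50 (permutation p = 0.101). Without the 2 farthest libraries its r was -0.46 (permutation p = 0.181). Of these 30 relations with the index, 10 in each class, 0 passed by r or by rho after adjustment. By r, 0% of genes passed in the Cp-high class, 0.147% in the H2-Ea-ps class and 0.0219% in the third class. By rho, 0% passed in the Cp-high class, 0.435% in the H2-Ea-ps class and 0% in the third class.

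Fitted slopes of 5 genes, Hmox1, Fth1, Ftl1, Tfrc and Slc11a2, were above 0 in the Cp-high class and below 0 in the other classes. Hmox1 had slopes of 1.85, -0.84 and -1.07 in the Cp-high class, the H2-Ea-ps class and the third class, and Fth1 had slopes of 0.54, -0.10 and -0.58. In the same order the slopes were 0.64, -0.23 and -0.27 for Ftl1, 0.58, -0.28 and -0.43 for Tfrc, and 0.15, -0.21 and -0.41 for Slc11a2. The test of the difference between classes itself gave an unadjusted p of 0.027 for Hmox1 and 0.0615 for Fth1 by edgeR, with adjusted p values of 0.718 and 0.814. For Ftl1, Tfrc and Slc11a2 the unadjusted p was 0.425, 0.626 and 0.664. It called 0 of 19038 genes, 6.34% of which had an unadjusted p under 0.05. With limma-voom 0 genes were called, and an index of Adgre1, Csf1r and Cd68 alone gave 14, none of them among the 10. Without PancO2 anti-PD-1 71, 3 of the 10 and 1827 of 18629 genes had an unadjusted p under 0.05 by edgeR, and 0 genes were called. A difference between classes was therefore not shown for these 5 genes.

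**Figure D3:**
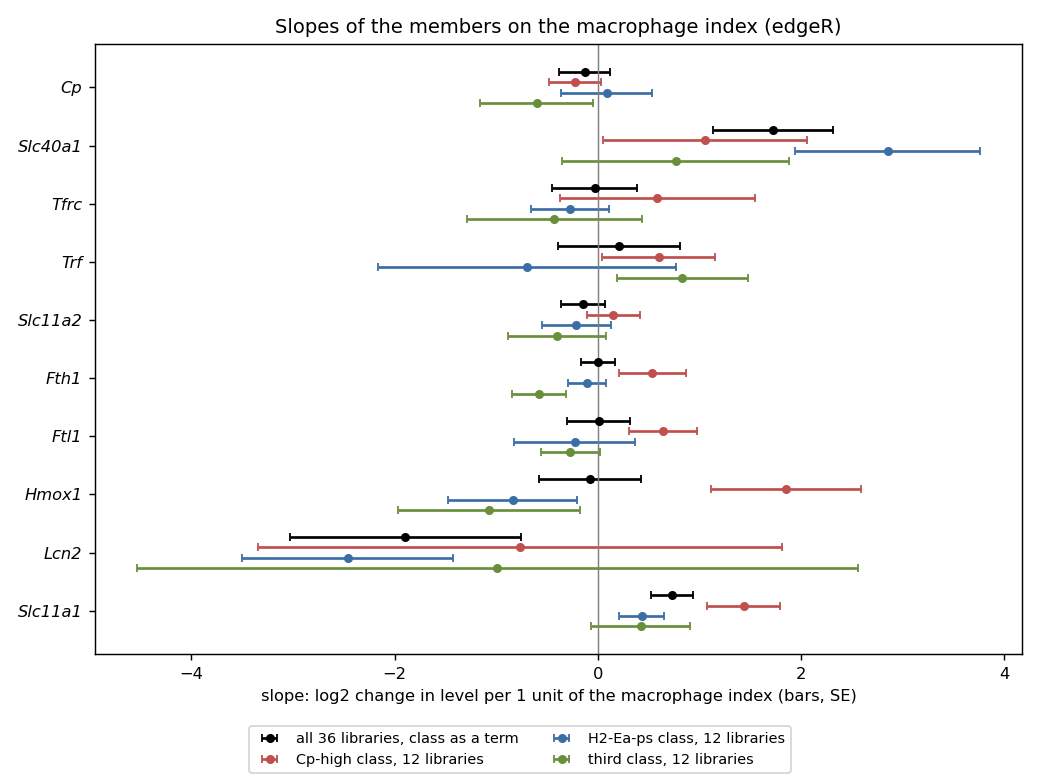
Slope of each gene on the macrophage index (log2 change in level per index unit) from edgeR, over 36 libraries with class as a term (black) and within each class of 12 libraries (colours); bars are standard errors. Slc40a1 and Slc11a1 lie to the right of 0 in all 4 fits, and Hmox1 lies at 1.85 in the Cp-high class and below 0 in the other classes; none passed the threshold on adjusted p.

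Neutrophils were taken up in a further fit, chosen after the data were seen, because Lcn2 is a granule gene. The neutrophil index was the mean log2 CPM of 8 markers such as S100a8, S100a9 and Retnlg. It ran from 0.167 to 2.12 in the Cp-high class, 0.0043 to 1.64 in the H2-Ea-ps class and 0.733 to 3.21 in the third. Its medians were 1.22, 0.524 and 1.40 in the same order. The H2-Ea-ps class thus had the lowest median index and the highest median Lcn2. With class as a term, Lcn2 rose by 1.63 log2 per index unit (SE 0.37, edgeR adjusted p = 0.020), where 1.82% of 17909 genes rose and 0.106% fell, and it was the only one of the 10 to pass. At an unadjusted p under 0.05, 2 of the 10 and 17.8% of all genes passed. It also passed in 36 of 36 fits that left out 1 library, with slopes from 1.49 to 1.78. With the macrophage index as an added term the slope was 1.52 (SE 0.38) and no longer passed (adjusted p = 0.0626). In the third class the library with the highest index, MC38 IgG 2, had the highest Lcn2 level, 9.44 CPM. In the H2-Ea-ps class the highest index was that of PancO2 anti-PD-1 71, whose Lcn2 level, 1.65 CPM, was the lowest of that class. Trf had a slope of 0.41 (SE 0.19, adjusted p = 0.232), which fell to 0.027 (SE 0.12) without PancO2 anti-PD-1 71.

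**Figure D4:**
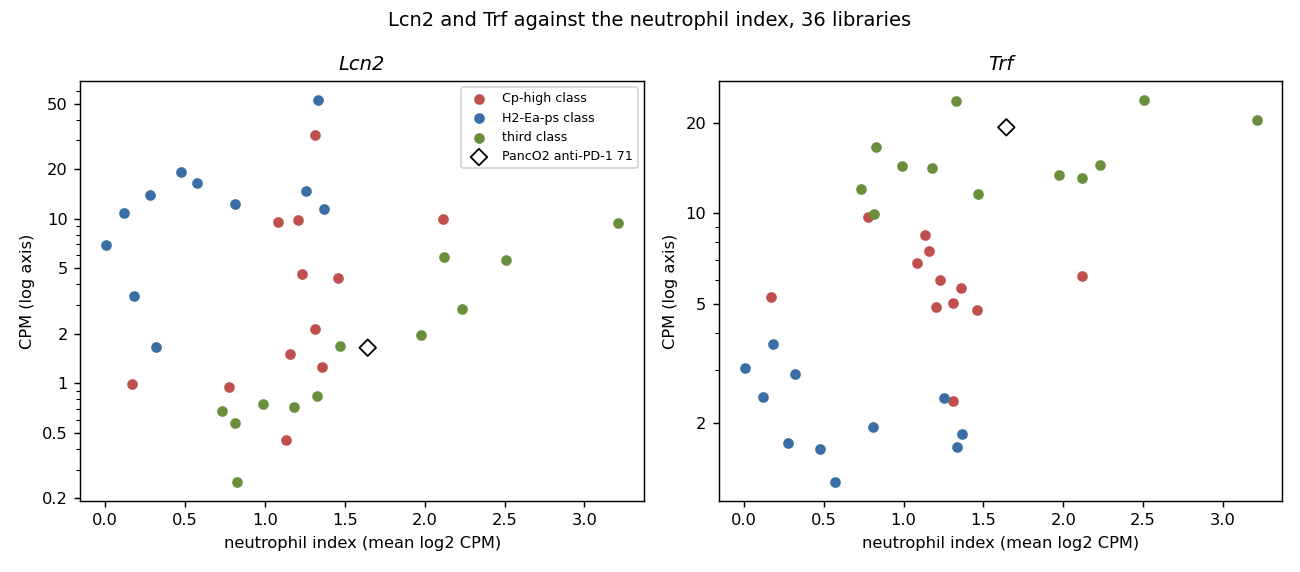
Levels of Lcn2 and Trf in CPM (log axis) against the neutrophil index (mean log2 CPM of 8 markers) in 36 libraries, coloured by class, with PancO2 anti-PD-1 71 as an open diamond. In the third class the library with the highest index, 3.21, has the highest Lcn2 level, 9.44 CPM; the open diamond lies far above the rest of its class for Trf.

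Hmox1 and the ferritin chains moved together from library to library. As a measure of likeness, the Pearson r of log2 CPM was taken within each class and averaged over the 3 classes (36 libraries), for all 9971 other genes of at least 5 CPM on average in every class. The mean r of Ftl1 and Hmox1 was 0.83, with 0.81 in the Cp-high class, 0.79 in the H2-Ea-ps class and 0.89 in the third class, and none of the 9971 genes was more like Hmox1. The mean r of Fth1 and Ftl1 was 0.76, with 0.95, 0.77 and 0.55 in the same order. Without PancO2 anti-PD-1 71 the mean r was 0.85 for Ftl1 and Hmox1 and 0.67 for Fth1 and Ftl1. These are descriptions, and the points share library, depth and RNA quality.

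**Figure D5:**
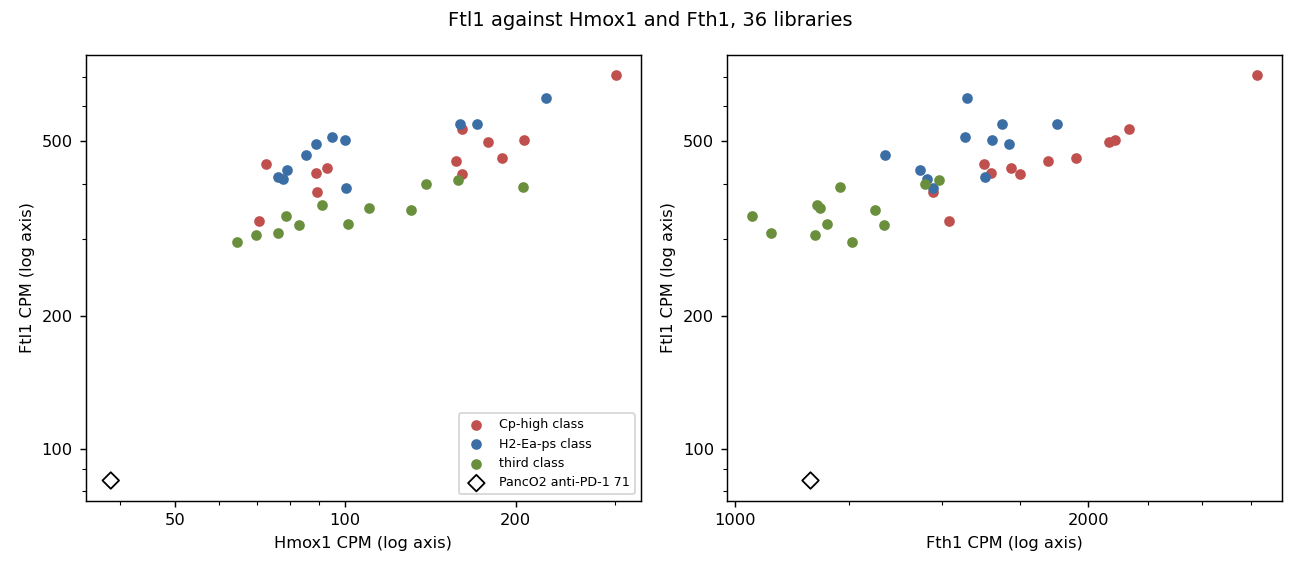
Ftl1 level against the Hmox1 level (left) and the Fth1 level (right), in CPM on log axes, in 36 libraries coloured by class, with PancO2 anti-PD-1 71 as an open diamond. Ftl1 rises with Hmox1 in each class (r of 0.81, 0.79 and 0.89), and PancO2 anti-PD-1 71 lies alone at the lower left with 84.6 CPM of Ftl1.

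Outside the 10 genes themselves, those most like each of them were named by the same measure, 3 for each. Ftl1 was nearest to Slc48a1, a haem transporter of the lysosome, at a mean r of 0.91, followed by Ninj1 (0.86) and Plin2 (0.85), which coats lipid droplets. Without PancO2 anti-PD-1 71 the values were 0.79 for Slc48a1 and 0.78 for Plin2, and 0.59 for Ninj1. Fth1 was nearest to Grina (0.85), Fau (0.81) and Slc37a4 (0.80), and Hmox1 to Flot1 (0.80), Blcap (0.78) and Tmem189 (0.78). In the same order, the values without that library were 0.76, 0.76 and 0.70 for Fth1 and 0.77, 0.77 and 0.77 for Hmox1.

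Slc40a1 was nearest to Stab1, a scavenger receptor of macrophages and endothelium, at a mean r of 0.84 with and without PancO2 anti-PD-1 71. Zfp974 (0.78) and Cnnm2 (0.75) followed, at ranks 4 and 11 without that library. Slc11a1 was nearest to genes of haematopoietic cells, Themis2 (0.87), the signalling adaptor gene Lcp2 (0.85, or 0.90 without that library) and Pik3ap1 (0.84). Lcn2 was nearest to Socs3 (0.77), an inhibitor of cytokine signalling, Nfkbiz (0.77) and the cytokine gene Lif (0.77). Without that library Nfkbiz ranked 1 (0.83), Lif 4 (0.75) and Socs3 10 (0.70). None of these genes is in either index.

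Slc11a2 was nearest to Larp1 (0.90), which binds mRNAs of the translation machinery, Klf16 (0.88) and Pprc1 (0.88). In the same order these were 0.86, 0.77 and 0.83 without PancO2 anti-PD-1 71. Tfrc was nearest to Otud4 (0.74), Arid5a (0.73) and Ptgs2 (0.72), the inducible cyclooxygenase. Cp had looser neighbours, Prelp (0.72), Grk5 (0.71) and Dio2 (0.69). The neighbours of Trf, Iffo1 (0.75), Rmdn1 (0.72) and Myl12b (0.72), fell to 0.63, 0.56 and 0.55 without PancO2 anti-PD-1 71.

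The comparisons set by the labels asked whether the genes differed between models under IgG or between antibody and IgG within a model. Each was tested with edgeR on the labelled groups of 4. By H2-Ea-ps, 16 of 36 libraries went against their labelled strain. Whether labels were exchanged between libraries was not tested, and the values below compare libraries as labelled. In the 9 comparisons 0 genes of any kind passed (0% in each). The labelled groups mix classes and these fits had no class term. Differences between classes are therefore part of the spread between tumours in these fits and can make calls less likely. With a class term 0 genes passed as well. DESeq2 called at most 2 genes in a comparison and limma-voom 0, and 0 of the 10 passed under any alternative. Of the 90 tests of the 10 genes, 2 had an unadjusted p under 0.05. Of all genes, 0.563%, 0.594% and 0.503% did between models (PancO2 against MC38, PancO2 against CT26, CT26 against MC38). For anti-PD-1 and anti-CTLA4 against IgG, the shares were 0.374% and 0.153% in MC38, 0.332% and 0.528% in CT26, and 5.56% and 0.488% in PancO2.

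The larger of these concerned ferroportin in PancO2. Slc40a1 was at 3.90, 3.21, 5.76 and 6.12 CPM in the IgG libraries and at 0.539, 2.13, 1.70 and 0.634 CPM in the anti-PD-1 libraries. The difference was -1.88 log2 (SE 0.48, unadjusted p = 0.00235, adjusted p = 0.8065 by edgeR). In this comparison 5.56% of 16410 genes had an unadjusted p under 0.05. The value of 0.539 CPM rests on 10 counts. That of 0.634 CPM rests on 5 counts and belongs to PancO2 anti-PD-1 71. Under 19 alternatives, among them the fit without that library, the difference lay between -2.18 and -1.60 log2. The classes differed too: PancO2 IgG held 1 library of the Cp-high class, 1 of the H2-Ea-ps class and 2 of the third class, and PancO2 anti-PD-1 held 2, 2 and 0. With a class term the difference was -1.93 log2 (SE 0.50, adjusted p = 0.997). The other was Slc11a2 in CT26, at 85.4, 52.5, 43.1 and 76.5 CPM under IgG and 57.01, 40.9, 39.2 and 44.6 CPM under anti-CTLA4, ranges that overlapped (-0.46 log2, SE 0.20, adjusted p = 1.0).

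Cp shows how the classes spread the labelled groups. In MC38 IgG the 4 Cp levels were 380, 107, 110 and 1973 CPM, and in PancO2 anti-PD-1 they were 137, 2168, 1634 and 96.5 CPM. Each of the 9 groups held at least 1 library above 1000 CPM and at least 1 at 143 CPM or less.

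The wider pathway was taken as 63 further genes in 6 lists, of which 52 were high enough to compare between classes. The Cp-high class lay wholly above the H2-Ea-ps class for 15 of the 52 (28.8%, against 18.9% of all genes) and wholly below for 2 (3.85%, against 12.0%). Without PancO2 anti-PD-1 71 these were 15 (28.8%, against 22.4%) and 7 (13.5%, against 16.9%). Against the third class it lay wholly above for 13 (25.0%, against 14.6%) and wholly below for 3 (5.77%, against 15.5%). The third class lay wholly above the H2-Ea-ps class for 5 (9.62%, against 17% of all genes) and wholly below it for 6 (11.5%, against 9.19%), or for 6 (11.5%, against 20.4%) and 8 (15.4%, against 13.4%) without that library. By list, the Cp-high class lay wholly above the H2-Ea-ps class for 6 of 12 copper genes, 5 of 16 haem genes, 3 of 8 uptake and reduction genes, 1 of 6 regulators, 0 of 3 storage and chaperone genes and 0 of 7 mitochondrial iron genes. Sod3, the extracellular copper superoxide dismutase, chosen here after its values were seen, had medians of 233 CPM in the Cp-high class, 36.6 CPM in the third class and 4.37 CPM in the H2-Ea-ps class, the same order as Cp.

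In the fit on the macrophage index across classes, 1 of 7 regulators rose. Of 9 uptake, 3 storage, 17 haem, 7 mitochondrial and 14 copper genes, 0 passed either way. Among all 17652 genes tested, 1.07% rose and 0.0623% fell. Hfe, whose protein binds the transferrin receptor and helps to set hepcidin, rose by 0.51 log2 per unit (SE 0.13, edgeR adjusted p = 0.0378). Its levels ran from 44.2 to 68.6 CPM in the Cp-high class (median 51.9), from 14.6 to 26.3 CPM in the H2-Ea-ps class (median 17.9) and from 23.0 to 42.04 CPM in the third class (median 31.6). It was not called without any one of 12 libraries or with limma-voom (adjusted p = 0.102). On the neutrophil index 0 pathway genes passed, where 1.82% of 17909 genes rose and 0.106% fell.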

How the data were processed

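Poly-A selected libraries (TruSeq V2) were made from 36 tumours. Per the labels and methods, the authors mapped reads to mm10 with TopHat and Bowtie2 and deposited raw read counts per Ensembl gene from HTSeq (07.2, with FastQC 0.11.5), without pooling or normalization. The Ensembl release and use of strand are not given in the sources used here, so shared exons are uncertain. HTSeq leaves out reads that map to several places.

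The 10 genes, the lists and the classes were chosen with earlier results of these data known. CPM used the 37417 gene rows, without the 5 summary lines, which held 44.8% to 63.4% of listed reads, and 86.5% in 1 library. Classes were limited at 10 CPM (H2-Ea-ps) and 1000 CPM (Cp). No pair of libraries in a class agreed within sampling noise (smallest chi-square per degree of freedom 7.57).

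Counts were tested with edgeR 4.0.16 (filterByExpr, TMM, robust quasi-likelihood fit; R 4.3.3), two-sided, adjusted by Benjamini-Hochberg over all genes tested. SE is the estimate divided by the square root of F. The authors compared tumours classed by their growth as responding or not with limma, classes that the labels used here do not give, and limma-voom (3.58.1) and DESeq2 1.42.0 were alternatives. For indices and correlations, 2 counts were added as a prior before taking log2 CPM, and p-values came from 100000 two-sided permutations (numpy 2.4.6, Python 3.11.15). Named genes were the 10, pathway genes called on the macrophage index (at most the 2 steepest in each direction per list), the 3 genes most like each of the 10, and H2-Ea-ps. The fits were tested on simulated counts with 200 changed genes, the same spread for every gene and no differences between classes. That test does not show how the fits perform on labelled groups that mix classes.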

Additional observations from a re-analysis of the deposited data

Results flagged for a closer look

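In 90 sets of 4 libraries (10 genes in 9 labelled groups), 9 had a library at one end whose gap to the nearest exceeded Dixon's 95% critical value, where chance gives about 4.5. For Cp these were MC38 IgG 7 (1973 CPM, others 107 to 380), MC38 anti-CTLA4 8 (1563 CPM, others 143 to 373) and CT26 IgG 28 (1861 CPM, others 97.7 to 363), each the only Cp-high library of its group. Cp set that class, so these 3 restate the choice, and for the other 9 genes 6 of 81 sets were past the value, where chance gives about 4.05. Both chance numbers assume values from the same normal distribution. The labelled groups mix classes, so whether there is an excess over chance was not tested. For Tfrc they were MC38 IgG 2 (343 CPM, others 124 to 158), MC38 anti-CTLA4 10 (165 CPM, others 135 to 139) and PancO2 anti-CTLA4 61 (181 CPM, others 79.2 to 86.0), all in the third class. PancO2 anti-CTLA4 61 was also the highest of its group for Slc11a2 (62.3 CPM, others 42.1 to 44.7). Hmox1 was highest in MC38 anti-PD-1 17 (189 CPM, others 91.1 to 100.5), and Lcn2 in CT26 anti-CTLA4 35 (10.8 CPM, others 0.993 to 1.97). None of these was PancO2 anti-PD-1 71.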

How the results depend on the processing

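The number of the 10 genes called stayed at 0 in every labelled comparison, within every class and for the difference between classes, under each alternative run and each left-out library. In the fit on the macrophage index across classes it was 1 (Slc11a1) when libraries were scaled by size only, with the DESeq2 Wald test and with the neutrophil index as an added term, and 0 otherwise. In the fit on the neutrophil index it was 1 (Lcn2), and 0 with the macrophage index added. The cause was not tested. Of 41 slopes with an unadjusted p of 0.05 or more, 19 changed sign under some setting.

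Hfe was not called with limma-voom, the neutrophil index added (adjusted p = 0.115) or labelled model and treatment added (adjusted p = 0.223), nor without any one of 12 libraries: MC38 anti-CTLA4 8 and 11, MC38 anti-PD-1 18, CT26 IgG 29, CT26 anti-CTLA4 32 and 35, CT26 anti-PD-1 40 and 41, PancO2 IgG 51, PancO2 anti-CTLA4 62, and PancO2 anti-PD-1 64 and 70 (adjusted p from 0.0525 to 0.2). Over all genes, calls on the macrophage index across classes went from 199 to between 132 (without PancO2 anti-CTLA4 62) and 310 (without PancO2 anti-PD-1 71). On the neutrophil index they went from 345 to 78 with the macrophage index added, 49 without PancO2 anti-PD-1 71 and 1110 without MC38 IgG 2. Within the Cp-high class they reached 91 without PancO2 anti-PD-1 70, within the third class 9 without CT26 IgG 24. Within the H2-Ea-ps class they went from 17 to between 0 and 273, the latter without PancO2 anti-PD-1 71. A fit of all 36 libraries called 49 genes between PancO2 anti-PD-1 and IgG, 0 of the 10 among them.

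Class medians moved by more than 1 SD only with the limit on Cp at 2000 CPM, which left 1 library in the Cp-high class; Cp was then 2168 CPM in the Cp-high class and 611 CPM in the third class, Fth1 1476 and Ftl1 392 CPM in the third class, and Hmox1 72.5 and Slc11a1 29.8 CPM in the Cp-high class. No paired analysis was possible because each mouse number belongs to 1 library. Lcn2, Slc40a1 and Trf rest on as few as 6, 5 and 26 counts in a library.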
